A study of Mus musculus with 28 samples.

Results

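The 10 genes described here, Esam, Robo4, Vwf, Cdh5, Pecam1, Tek, Tie1, Aplnr, Kdr and Flt1, are markers of endothelial cells, the cells that line blood vessels. They were taken as a list of names, chosen with earlier results of these data known. Each was represented by its probe set of highest mean, and 1 probe set per gene was found in each of the 2 deposited tables. The 10 are part of 18974 genes measured in both tables, which hold 19928 genes for liver and quadriceps and 30063 for heart and gastrocnemius. RNA came from female C57BL/6J mice kept in groups on standard chow and killed after an overnight fast at 6 months (24 weeks) or 24 months (103 weeks). The labels name no allele and no agent in any group, so the groups are given by age and tissue alone. Liver and quadriceps have 3 arrays per age and heart and gastrocnemius 4, which makes 28 arrays in all. Neither separate animals for the arrays of a group nor animals shared by tissues are stated in the labels. The p-values therefore refer to the scatter among these arrays, which may be technical.

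Endothelial cells are held together by adhesion molecules at their junctions, among them VE-cadherin (Cdh5), ESAM (Esam) and PECAM-1 (Pecam1). Their growth and survival depend on receptor tyrosine kinases for vascular endothelial growth factors (Kdr and Flt1) and on the angiopoietin receptor Tie2 (Tek) with its partner Tie1. Aplnr is the receptor for apelin, Robo4 is a vessel-specific member of the roundabout receptor family, and Vwf encodes von Willebrand factor, which carries platelets to a damaged vessel wall. Vwf, Pecam1 and Esam are also made by platelets or their precursors.

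Values are deposited log2 expression values, so a difference of 1 is a doubling, and levels are compared for a gene between arrays, never between genes. Markers of the labelled tissues were high where they belong: albumin (Alb) read 14.09 to 14.16 in liver, the cardiac myosin Myh6 13.16 to 13.29 in heart, and the fast-fibre myosin Myh4 13.70 to 13.83 in quadriceps and 13.55 to 13.62 in gastrocnemius. In bulk tissue, fewer endothelial cells and less RNA per endothelial cell cannot be told apart. Some arrays stood apart. The 24-month liver array 2 had a mean of 9.45 over 6 exocrine pancreas markers, against 6.12 to 6.61 in the other liver arrays. The mean of 5 atrial markers ran from 8.59 to 10.01 over the 6-month hearts and from 7.19 to 9.65 over the 24-month hearts. The 6-month quadriceps array 3 had a mean of 7.45 over 6 adipocyte markers, against 8.03 to 8.76 in the other quadriceps arrays. In gastrocnemius, the array numbered 4 had the lowest mean of the 10 genes at each age.

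The RefSeq promoter table (assembly GRCm38.p6) held a start site for 5 of the 10 genes: Robo4, Tek, Tie1, Kdr and Flt1. The 250 bases before the start of 3 of them are printed here. These 3 were chosen after the age differences were seen. Robo4 and Tie1 were lower in every 24-month gastrocnemius array while Tek was not. Tek was lower in every 24-month heart and liver array, and Tie1 in every 24-month heart array. Capitals mark GGAA on either strand (TTCC when read on the other), the core bound by ETS transcription factors such as ERG and FLI1. The windows lie at chr9:37401722-37401971 (plus strand) for Robo4, chr4:118489850-118490099 (minus strand) for Tie1 and chr4:94739039-94739288 (plus strand) for Tek.
Robo4: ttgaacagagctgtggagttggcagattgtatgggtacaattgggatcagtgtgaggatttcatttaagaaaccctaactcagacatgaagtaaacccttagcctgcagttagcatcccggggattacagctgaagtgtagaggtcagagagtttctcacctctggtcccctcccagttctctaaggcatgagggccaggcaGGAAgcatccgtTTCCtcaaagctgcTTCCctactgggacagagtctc
Tie1: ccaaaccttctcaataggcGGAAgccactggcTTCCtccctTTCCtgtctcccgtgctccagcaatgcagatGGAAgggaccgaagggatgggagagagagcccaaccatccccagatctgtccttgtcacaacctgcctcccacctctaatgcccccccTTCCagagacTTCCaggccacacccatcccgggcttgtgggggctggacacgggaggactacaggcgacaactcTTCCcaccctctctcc
Tek: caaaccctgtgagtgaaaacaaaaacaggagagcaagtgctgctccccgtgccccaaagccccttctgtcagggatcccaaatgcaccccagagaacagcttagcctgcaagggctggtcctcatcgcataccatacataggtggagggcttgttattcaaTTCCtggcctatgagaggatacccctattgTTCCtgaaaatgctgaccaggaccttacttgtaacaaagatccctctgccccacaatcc
The Robo4 window held 3 copies of GGAA, the Tie1 window 7 and the Tek window 2. The Kdr and Flt1 windows held 4 each. Over all 32851 windows of the table, trimmed alike, the median was 3 copies and 93.4% held at least 1. The longer form CAGGAA, which contains GGAA, occurred in 2 copies in Tek and 1 copy each in Robo4 and Tie1, and 25.7% of all windows held it. CCGGAA, which also contains GGAA, occurred in 1 copy in Kdr, and 12% of all windows held it. The GC content was 49.6% for Robo4, 60.4% for Tie1, 51.2% for Tek, 61.6% for Kdr and 70.4% for Flt1, against a median of 52.4% over all windows. These matches describe the letters of the windows, and whether they relate to the age differences was not tested.

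Age was compared within each tissue as 24 minus 6 months with limma and Benjamini-Hochberg adjustment over all genes of the table. None of the 10 genes passed an adjusted p of 0.05 in any of the 4 tissues, where 0.326% of all genes passed in liver, 0.00502% in quadriceps, 0.00665% in heart and 0.00998% in gastrocnemius. In gastrocnemius the 10 genes lay on 1 side of 0. All 10 had a lower mean at 24 months, against 44.3% of all genes. Their median difference was -0.26 (range -0.40 to -0.06), and the median over all genes was 0.02. In 4 of them, Esam, Robo4, Vwf and Tie1, every 24-month array lay below every 6-month array, an arrangement found in 4.78% of all genes, and none was wholly higher (3.86% of all genes were). At an unadjusted p under 0.05, 6 of the 10 were lower, against 9.05% of all genes. Because the list was chosen with earlier results of these data known, the shares here and below are a description and not a test.

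In heart, 8 of the 10 had a lower mean at 24 months (43.6% of all genes), with a median difference of -0.08 against 0.01 over all genes. Tek, Tie1 and Aplnr were lower in every 24-month heart (1.36% of all genes) and none was higher in every one (1.94%), while 4 of the 10 were lower at an unadjusted p under 0.05 (2.1% of all genes). In liver, 6 were lower (45.2% of all genes), with a median of -0.04 against 0.03. The direction in liver moved with the scaling. The median of the 10 was 0.03 after quantile normalization (0.01 over all genes) and 0.02 after cyclic loess (0.0). With arrays centred on their median it was -0.15, where all genes had -0.09. With dim genes left out, those of the 10 that were kept had a median of -0.05, against -0.07 over all genes kept. Tek was lower in every old liver (17.4% of all genes) and Vwf higher in every old liver (18.7%). Tek was the only one of the 10 lower in liver at an unadjusted p under 0.05, which 14.4% of all genes met. In quadriceps, 7 were lower (46.7% of all genes), with a median of -0.04 against 0.01. With 1 quadriceps array left out, 4 to 8 were lower, the fewest without the young array 3 (median 0.02). With array weights 5 were lower. No quadriceps difference met the unadjusted threshold (3.26% of all genes were lower by it). None of the 10 separated the ages there either, where 5.33% of all genes were wholly lower and 6.69% wholly higher at 24 months.

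**Figure D1:**
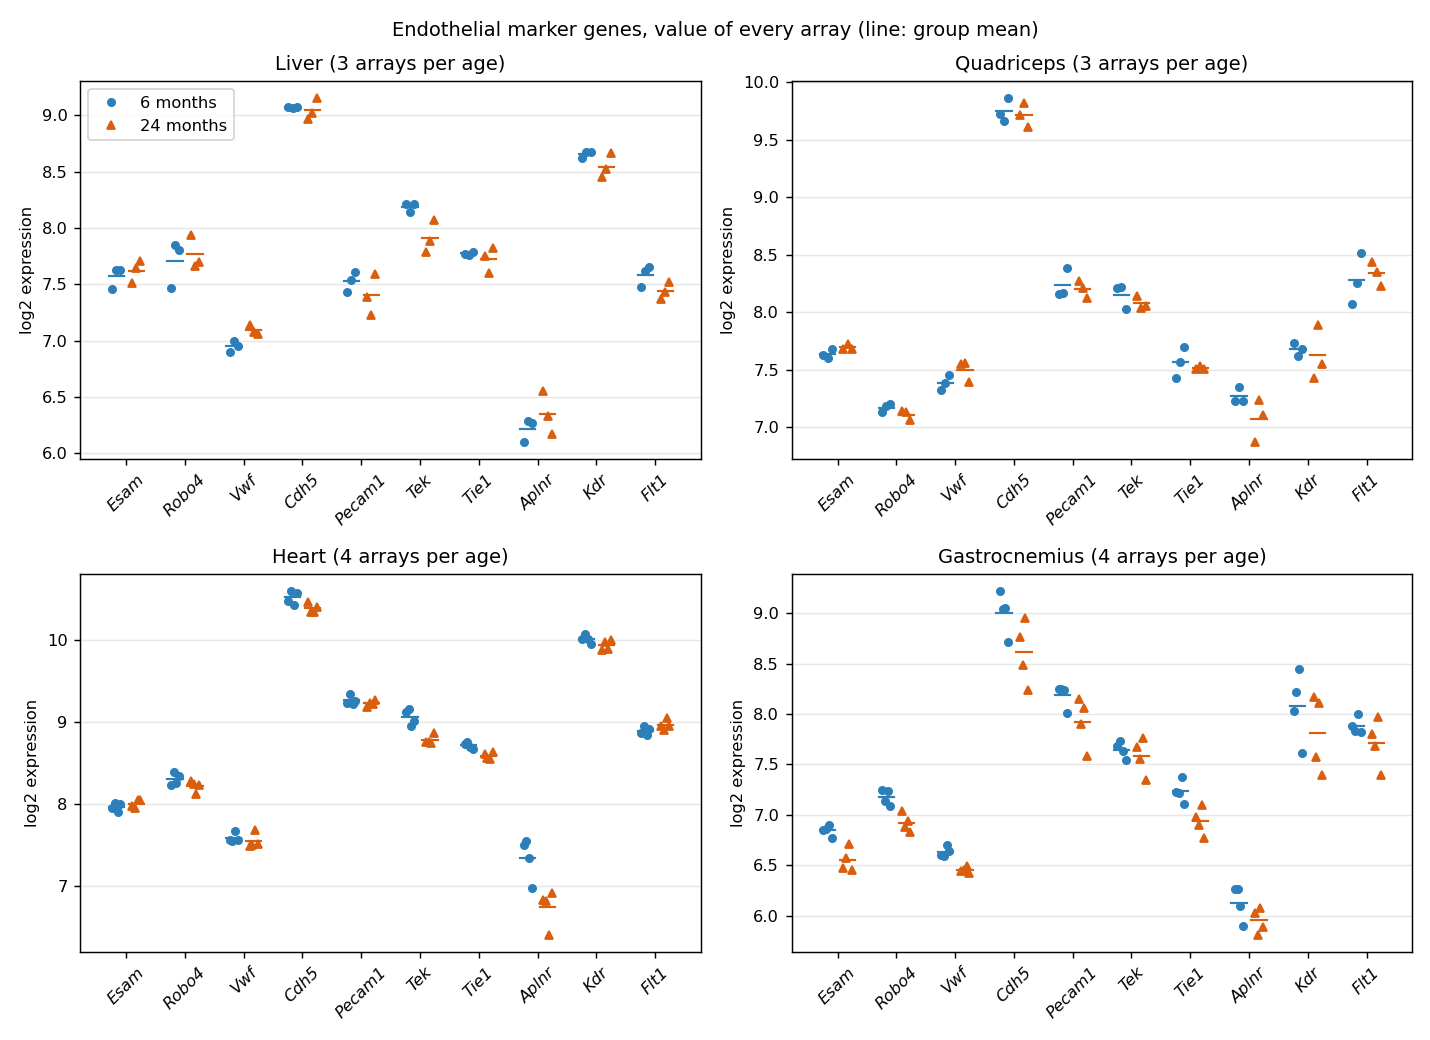
Deposited log2 value of each of the 10 genes (horizontal axis) in every array, 1 panel per tissue, with circles for 6 months, triangles for 24 months and lines for group means; n is 3 arrays per age in liver and quadriceps and 4 in heart and gastrocnemius. In gastrocnemius the 24-month points of Esam, Robo4, Vwf and Tie1 lie wholly below the 6-month points, and in heart those of Tek, Tie1 and Aplnr do.

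The mean of the 10 genes in the gastrocnemius was 7.53, 7.51, 7.57 and 7.32 at 6 months and 7.35, 7.18, 7.42 and 7.03 at 24 months. The ages overlapped through the 6-month array 4. The mean over 8 skeletal fibre markers was also lowest in array 4 of each age, 12.94 among 13.11 to 13.15 at 6 months and 12.84 among 13.04 to 13.14 at 24 months. Without the 24-month array 4 alone, the median of the 10 genes was -0.16 instead of -0.26, the range was -0.27 to 0.02, and 9 of the 10 stayed below 0. The 4 genes that separated the ages then ran from -0.26 (Esam) to -0.17 (Vwf), while Cdh5 was -0.27, Pecam1 -0.15, Kdr -0.13 and Flt1 -0.07. With both arrays numbered 4 left out, a choice made after seeing the data, the median of the 10 genes was -0.25, the range was -0.37 to -0.02, and none passed the adjusted threshold. In heart the mean of the 10 ran from 8.73 to 8.84 at 6 months and from 8.61 to 8.69 at 24 months, so the ages did not overlap. Aplnr (-0.60) and Tek (-0.28) weighed most in that mean, and the others differed by -0.13 to 0.07. No share over all genes was taken for such means. In liver the mean of the 10 ran from 7.65 to 7.77 and from 7.64 to 7.75. In quadriceps it ran from 7.86 to 7.97 and from 7.83 to 7.95, so the ages of both overlapped.

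Among the junction molecules, Esam showed the clearest separation in gastrocnemius. Its values were 6.85, 6.86, 6.90 and 6.77 at 6 months and 6.47, 6.57, 6.71 and 6.45 at 24 months. Every old array was below every young one, and the difference was -0.30 (SE 0.0649, 95% interval -0.44 to -0.15, limma adjusted p = 0.108). In heart Esam read 7.95, 8.02, 7.91 and 8.0 at 6 months and 7.98, 7.95, 8.05 and 8.05 at 24 months, and the ages overlapped with a difference of 0.04 (-0.07 to 0.14). The differences in liver (0.05, -0.16 to 0.25) and quadriceps (0.06, -0.09 to 0.20) had intervals that included 0.

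Cdh5, the cadherin of endothelial adherens junctions, had the largest difference of the 10 in gastrocnemius but also a wide spread. Its values were 9.22, 9.04, 9.05 and 8.71 at 6 months and 8.76, 8.49, 8.95 and 8.24 at 24 months. Array 4 was the lowest at each age and the ages overlapped. The difference was -0.40 (SE 0.154, -0.74 to -0.05, limma adjusted p = 0.253), and -0.37 without both arrays numbered 4. In heart Cdh5 read 10.48, 10.60, 10.43 and 10.58 and then 10.47, 10.34, 10.34 and 10.41, with 1 old array inside the young range. That difference was -0.13 (-0.26 to -0.01, adjusted p = 0.798). In liver and quadriceps the Cdh5 differences were -0.02 and -0.03.

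Pecam1, an adhesion molecule found at the borders between endothelial cells, read 8.25, 8.25, 8.24 and 8.01 in the young gastrocnemius and 8.15, 7.90, 8.06 and 7.58 in the old. The ages overlapped through the young array of 8.01, and the difference was -0.27 (SE 0.116, -0.53 to 0.00, limma adjusted p = 0.295). Without both arrays numbered 4 it was -0.21. The heart difference of Pecam1 was -0.04 (-0.13 to 0.06), with 9.22 to 9.34 at 6 months and 9.19 to 9.27 at 24 months.

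Vwf, the platelet-binding protein that endothelial cells store and secrete, lay on opposite sides of 0 in gastrocnemius and liver. In gastrocnemius it read 6.60, 6.59, 6.70 and 6.64 at 6 months and 6.44, 6.45, 6.49 and 6.42 at 24 months. All old arrays were lower, by 0.18 on average (difference -0.18, SE 0.0456, -0.28 to -0.08, limma adjusted p = 0.125). In liver it read 6.90, 7.0 and 6.95 at 6 months and 7.14, 7.08 and 7.06 at 24 months. All old livers were higher, with a difference of 0.14 whose interval included 0 (-0.03 to 0.31, adjusted p = 0.21). With arrays centred on their median the liver difference was 0.03 (adjusted p = 0.813), while that in gastrocnemius was -0.22. Platelet and megakaryocyte markers had a mean of 6.60 to 6.93 over the young livers and 6.85 to 7.11 over the old, and all 8 measured had a higher mean at 24 months, by a median of 0.29. In gastrocnemius the same means were 5.40 to 5.47 and 5.44 to 5.52. The part of platelet RNA in the Vwf values was not tested. The quadriceps difference of Vwf was 0.12 (-0.06 to 0.29) and the heart difference -0.04 (-0.16 to 0.09).

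Of the growth factor receptors in gastrocnemius, Kdr varied more between arrays of each age (standard deviation 0.36 and 0.39) than between ages. Flt1 did so at 24 months (0.24) but not at 6 months (0.08). Kdr, the main signalling receptor for VEGF-A, read 8.03, 8.22, 8.45 and 7.61 at 6 months and 8.17, 7.57, 8.11 and 7.39 at 24 months. The ages overlapped over most of their range, and the difference was -0.27 (SE 0.212, -0.74 to 0.21, limma adjusted p = 0.556). Flt1, which binds VEGF-A tightly and limits its signal, read 7.88, 7.83, 8.0 and 7.82 and then 7.80, 7.68, 7.97 and 7.39. Its difference was -0.17 (-0.42 to 0.07), and -0.09 without both arrays numbered 4.

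In heart Kdr read 10.02, 10.07, 10.02 and 9.95 at 6 months and 9.88, 9.98, 9.89 and 10 at 24 months, a difference of -0.08 (-0.19 to 0.03). In heart Flt1 and Esam were the members above 0. Flt1 read 8.84 to 8.96 at 6 months and 8.90 to 9.05 at 24 months, a difference of 0.07 (-0.04 to 0.18). In liver the differences were -0.11 for Kdr (-0.30 to 0.08) and -0.14 for Flt1 (-0.33 to 0.05). In quadriceps they were -0.05 for Kdr (-0.32 to 0.21) and 0.06 for Flt1 (-0.20 to 0.33), and all of these ages overlapped.

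Tek, the receptor for the angiopoietins, was lower in every old heart and every old liver. In heart it read 9.13, 9.16, 8.95 and 9.02 at 6 months and 8.76, 8.76, 8.75 and 8.87 at 24 months. The groups did not overlap, and the difference was -0.28, a 1.21-fold lower level (SE 0.0578, -0.41 to -0.15, limma adjusted p = 0.307). In liver it read 8.21, 8.14 and 8.21 and then 7.79, 7.88 and 8.07. That difference was -0.27 (SE 0.0911, -0.48 to -0.07, adjusted p = 0.0882). Without the old liver array 3, the highest of the old livers, it was -0.35 with an adjusted p of 0.0222, and it also passed with arrays centred on their median (-0.39, adjusted p = 0.0394), with array weights (-0.29, 0.011) and in a fit joint with quadriceps (-0.27, 0.041). Many genes passed in these fits: 5073, 2870, 7897 and 3625 of all 19928, in that order, against 65 in the main fit. Other scalings made the liver difference of Tek smaller: it was -0.16 after quantile normalization (adjusted p = 0.241) and -0.18 after cyclic loess (0.206).

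In gastrocnemius Tek was the least different of the 10, with 7.68, 7.73, 7.63 and 7.54 at 6 months and 7.67, 7.55, 7.76 and 7.35 at 24 months. The difference was -0.06 (-0.26 to 0.13), and it turned to 0.02 without the old array 4. In quadriceps the Tek difference was -0.08 (-0.25 to 0.10).

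Tie1, the partner of Tie2 that has no high-affinity ligand of its own, was lower in every old heart and every old gastrocnemius. In gastrocnemius it read 7.23, 7.22, 7.37 and 7.11 at 6 months and 6.98, 6.90, 7.10 and 6.77 at 24 months. The highest old array lay just under the lowest young one, and the difference was -0.30 (SE 0.0795, -0.47 to -0.12, limma adjusted p = 0.141). In heart it read 8.73, 8.76, 8.70 and 8.68 and then 8.61, 8.57, 8.55 and 8.64. The heart difference was smaller, -0.13 (SE 0.0422, -0.22 to -0.03, adjusted p = 0.658). In liver and quadriceps it was -0.05 in each.

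Aplnr, the apelin receptor, had the largest age difference of the 10 in heart. It read 7.51, 7.55, 7.34 and 6.98 at 6 months and 6.84, 6.82, 6.41 and 6.92 at 24 months. The lowest young heart lay 0.06 above the highest old heart. The difference was -0.60, a 1.51-fold lower level (SE 0.142, -0.92 to -0.28, limma adjusted p = 0.379). The atrial marker means of the same arrays were 9.40, 9.49, 10.01 and 8.59 at 6 months and 7.19, 9.65, 8.78 and 7.33 at 24 months. All 5 atrial markers had a lower mean in the old hearts, with a median difference of -1.24, none past the threshold. With the atrial mean as a covariate, added after seeing the data, the Aplnr difference was -0.60 (SE 0.184, adjusted p = 0.68). Among the young hearts, array 4 had both the lowest atrial mean (8.59) and the lowest Aplnr value (6.98). Among the old hearts, arrays 2 and 3 had atrial means within the young range and Aplnr values of 6.82 and 6.41. The old arrays 1 and 4 had atrial means below that range and Aplnr values of 6.84 and 6.92. Apart from the covariate, the part of atrial tissue in the Aplnr values was not tested.

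**Figure D2:**
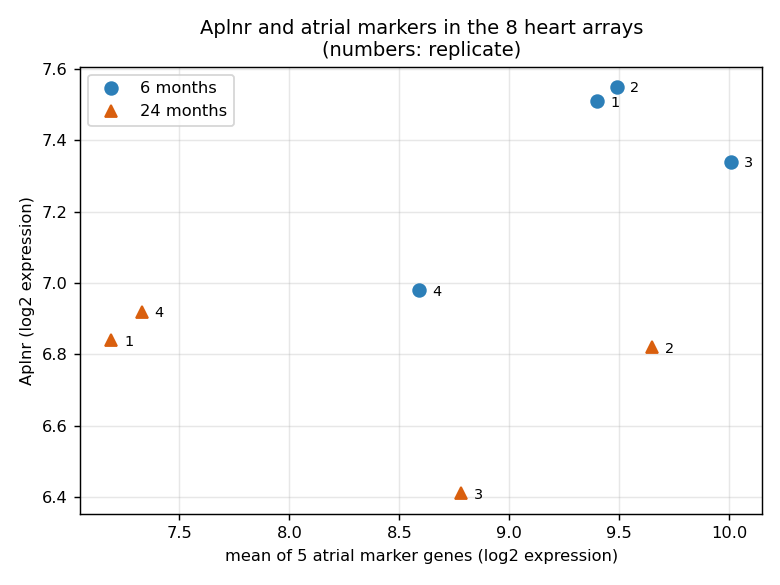
Log2 value of Aplnr (vertical axis) against the mean log2 value of 5 atrial markers (horizontal axis) in the 4 young and 4 old hearts, 1 point per array with its replicate number. The old hearts sit between 6.41 and 6.92 and the young between 6.98 and 7.55, and the atrial means of the ages overlap in part.

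Hepatocyte markers also differed between the hearts, with all 7 lower at 24 months by a median of -0.28. Albumin read 5.96 to 9.54 in the young hearts and 4.73 to 5.37 in the old, and its part in the heart values of the 10 genes was not tested. In gastrocnemius Aplnr read 6.26, 6.26, 6.10 and 5.90 and then 6.03, 5.81, 6.08 and 5.89, a difference of -0.18 (-0.38 to 0.03, limma adjusted p = 0.37). In quadriceps it read 7.23, 7.35 and 7.23 and then 6.87, 7.24 and 7.11, so only the old array of 7.24 reached into the young range. That difference was -0.20 (SE 0.1, -0.43 to 0.03, adjusted p = 0.738). In liver it was 0.13 (-0.12 to 0.38).

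Robo4, a receptor that helps keep vessels tight, was lower in every old gastrocnemius. It read 7.25, 7.14, 7.24 and 7.09 at 6 months and 7.04, 6.88, 6.94 and 6.83 at 24 months. The difference was -0.26, a 1.2-fold lower level (SE 0.0614, -0.39 to -0.12, limma adjusted p = 0.12). In heart it was -0.09 (-0.21 to 0.03), with 8.24 to 8.39 at 6 months and 8.12 to 8.28 at 24 months. In liver it was 0.06 (-0.22 to 0.34) and in quadriceps -0.06 (-0.21 to 0.09). Robo4 and Esam lie on chromosome 9 with 2 protein-coding genes between them in the RefSeq table.

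**Figure D3:**
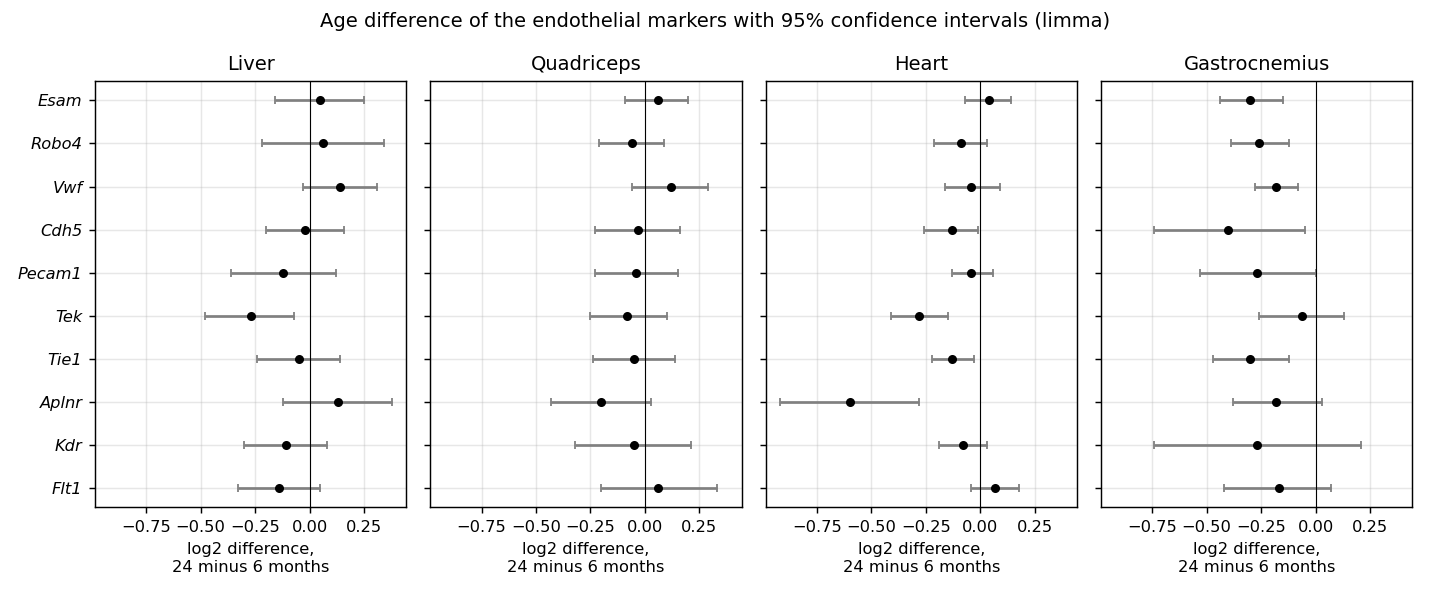
Difference of 24 minus 6 months on the log2 scale (horizontal axis) for each of the 10 genes in the 4 tissues, with points for limma estimates and bars for 95% confidence intervals. All 10 gastrocnemius points lie below 0, from -0.40 to -0.06, and Aplnr in heart lies farthest from 0 at -0.60.

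Whether the age differences themselves differed between tissues was tested as an interaction within each table. None of the 10 passed for gastrocnemius against heart, where 0.595% of all genes did, and 2 of the 10 had an unadjusted p under 0.05, against 13.8% of all genes. These were Esam and Aplnr, which pointed in opposite directions. Esam was lower with age by 0.33 more in gastrocnemius than in heart (interaction -0.33, SE 0.0788, -0.50 to -0.17, limma adjusted p = 0.0737). Aplnr was lower with age in heart by more (interaction 0.42, SE 0.182, 0.03 to 0.81, adjusted p = 0.322). The Esam interaction passed the threshold without the old gastrocnemius array 3 (-0.39, adjusted p = 0.0147). It also passed with dim genes left out (adjusted p = 0.0424), with an intensity trend and robust prior (0.0492) and with array weights (-0.32, 0.035). For Vwf it was -0.15 (adjusted p = 0.365). For quadriceps against liver none of the 10 passed, where 0.0151% of all genes did. None had an unadjusted p under 0.05, against 19.8% of all genes. The largest were Aplnr at -0.33 (-0.66 to 0.01, adjusted p = 0.265) and Flt1 at 0.21 (-0.11 to 0.52, adjusted p = 0.435).

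The same genes differed strongly between tissues of one array type at 6 months. All 10 were lower in gastrocnemius than in heart and passed the threshold, against 60.8% of all genes lower and 14.7% higher (75.5% in either direction). The median of the 10 was -1.17, and that of all genes was -0.27. With arrays centred on their median, all genes had a median of 0.14 and the 10 genes one of -0.76. After quantile normalization these medians were 0.06 and -0.98. The shares over all genes reversed with the scaling. As deposited, 18264 genes passed as lower and 4427 as higher. With centred arrays 5800 were lower and 14300 higher, and after quantile normalization 7637 and 11234. Kdr stood out at -1.94 (SE 0.167, 3.83-fold lower, limma adjusted p = 2.51e-08). Cdh5 followed at -1.52, Tie1 at -1.49 and Tek at -1.42. Vwf had the smallest gap at -0.96 (adjusted p = 3.95e-11).

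Between quadriceps and liver, 8 of the 10 passed, against 68.2% of all genes. In quadriceps 5 were higher (27.5% of all genes) and 3 lower (40.7%). The shares over all genes moved with the scaling: after quantile normalization 7467 genes passed as higher and 6367 as lower. Aplnr was 2.07-fold higher in quadriceps (difference 1.05, SE 0.111, limma adjusted p = 1.16e-06), followed by Pecam1 at 0.71, Flt1 at 0.69, Cdh5 at 0.68 and Vwf at 0.43. Kdr was 1.97-fold lower in quadriceps (-0.98, SE 0.103, adjusted p = 1.23e-06) and Robo4 was lower by 0.54 (difference -0.54). The VEGF receptors Kdr and Flt1 thus differed between these tissues in opposite directions. Tie1 was lower by little (-0.21, adjusted p = 0.0359), and without any 1 of the young liver arrays or of the young quadriceps arrays 1 and 2 it no longer passed. The Tie1 call was also lost with arrays centred on their median (-0.11, adjusted p = 0.264) and after cyclic loess (-0.05, 0.603), and the difference was 0.08 after quantile normalization. Esam (0.06, -0.10 to 0.22) and Tek (-0.03, -0.21 to 0.15) did not pass, and Tek was above 0 under each other scaling run (0.06 to 0.26). Esam passed after quantile normalization (0.33, adjusted p = 0.000879) and cyclic loess (0.22, 0.0111). Markers of liver sinusoidal endothelium, a fenestrated vessel type, were lower in quadriceps for 15 of 17 genes, by a median of -2.19.

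**Figure D4:**
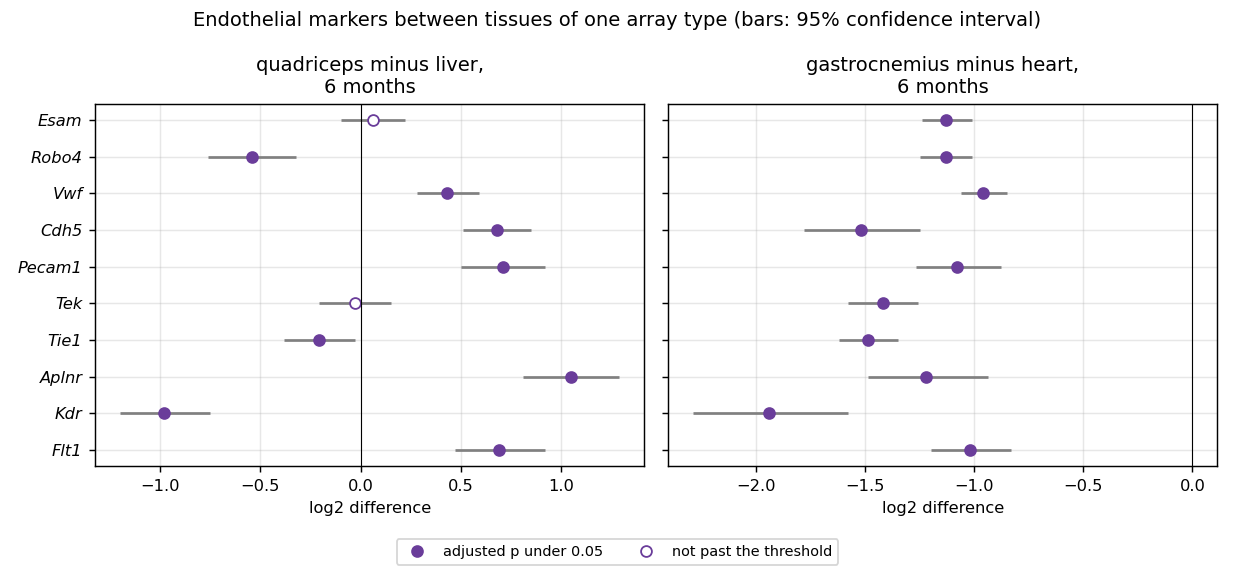
Tissue difference at 6 months on the log2 scale for the 10 genes, quadriceps minus liver (3 arrays each) on the left and gastrocnemius minus heart (4 arrays each) on the right, with 95% confidence intervals. Filled points passed an adjusted p of 0.05: all 10 on the right, all below 0, and 8 on the left, of which 5 lie above 0.

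Other genes of endothelial pathways were counted from lists that do not contain the 10 genes. In gastrocnemius none of the measured genes of any list passed the adjusted threshold. Of 20 other junction and surface molecules, 18 were below 0 with a median of -0.14. They included Gpihbp1, which holds lipoprotein lipase on the capillary wall (-0.39, adjusted p = 0.14), and Plvap, a protein of capillary diaphragms (-0.30, 0.166). Of 20 transcription factors, 16 were below 0 with a median of -0.09, with the flow-responsive factor Klf2 at -0.44 (adjusted p = 0.126) and Mef2c at 0.19 (0.172). Of 10 Notch pathway genes, 9 were below 0, with Heyl at -0.13 and Notch1 at -0.11. Of 15 ligands and co-receptors, 9 were below 0 with a median of -0.02. The phosphatase Ptprb, which acts on Tie2, had -0.33 (adjusted p = 0.162) and the lymphatic growth factor Vegfd 0.27 (0.228). The remaining endothelial lists did not lean down in gastrocnemius. Of 11 activation genes, 6 were above 0 with a median of 0.01. Of 17 sinusoidal markers, 11 were above 0 (median 0.04), and of 6 lymphatic markers, 3 were (median -0.02).

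Markers of other cells were read in the same gastrocnemius arrays. Of 12 pericyte and smooth muscle markers, 11 were below 0 with a median of -0.12, and their mean was 7.62 to 7.82 in the young arrays and 7.41 to 7.61 in the old. Pdgfrb, the pericyte receptor for PDGF-B, had -0.33 (limma adjusted p = 0.172) and Mcam -0.19 (0.214). All 13 macrophage markers were above 0 with a median of 0.17, and their mean was 6.04 to 6.09 in the young and 6.14 to 6.49 in the old. Vsig4 had 0.37 (adjusted p = 0.079) and the scavenger receptor Cd163 0.50 (0.103). Skeletal fibre markers were below 0 for 7 of 8, with a median of -0.06. The part of any of these cells in the values of the 10 genes was not tested.

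In heart, 12 of 20 junction and surface molecules were below 0 with a median of -0.01. Myct1 (-0.36, adjusted p = 0.408) and Cd93 (-0.24, 0.542) had the smallest p. They were among 4 of the 20 that were lower in every old heart (1.36% of all genes). None of the 20 was higher in every old heart (1.94%). Of 15 ligands and co-receptors, 7 were below 0, with the lymphatic growth factor Vegfc at -0.13 and placental growth factor Pgf at 0.17. Apelin (Apln), the ligand of Aplnr and named here for that reason after its values were seen, had -0.15 (-0.33 to 0.03, limma adjusted p = 0.888). Hey1, a Notch target, had 0.33 (adjusted p = 0.425). Above 0 were 6 of 10 Notch genes (median 0.03), 12 of 20 transcription factors (0.02) and 14 of 17 sinusoidal markers (0.04). Of 6 lymphatic markers, 4 were above 0 (median 0.03), and of 11 activation genes, 7 were below 0 (-0.03).

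In liver the other endothelial genes lay on both sides of 0. Jag2, a Notch ligand, was the only gene of the lists for endothelial cells to pass in any tissue, with a rise of 0.54 (SE 0.0857, 0.35 to 0.73, limma adjusted p = 0.0493). The call rested on most arrays: without any 1 of them except the old liver array 3 the adjusted p was 0.0909 to 0.172, with differences of 0.48 to 0.57. It was also lost after quantile normalization (0.43, adjusted p = 0.064) and with every probe set tested (adjusted p = 0.0539). Among 17 ligands and co-receptors, 11 were below 0, while the Tie2 ligand Angpt4 had 0.42 (adjusted p = 0.0543) and Apln 0.33 (0.0712). Of 10 activation genes, 8 were above 0 with a median of 0.21, with the chemokine Ccl2 at 0.50 (0.0543) and the protein C receptor Procr at 0.45 (0.0564). Of 20 transcription factors, 15 were above 0 with a median of 0.10, with Tal1 at 0.29 and Klf2 at 0.27. Markers of cells foreign to liver were also above 0 in the same arrays: 8 of 8 skeletal fibre markers (median 0.31), 8 of 8 heart muscle markers (0.20) and 5 of 6 adipocyte markers (0.29). The skeletal fibre mean was 5.66 to 5.73 in the young livers and 5.88 to 6.08 in the old, and whether these shifts share a source with the endothelial lists was not tested. The skeletal fibre means and the heart muscle means (5.97 to 6.30) were dim, below the median of 6.46 over all values of liver and quadriceps. With dim genes left out, the median liver difference over all genes was -0.07 instead of 0.03. The part of dimness in the rises of these lists was not tested. Of 17 sinusoidal markers, 14 were below 0 with a median of -0.12. In quadriceps 13 of 22 junction and surface molecules were below 0 with a median of -0.03, and the tight-junction protein Cldn5 had -0.44 (adjusted p = 0.565).

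**Figure D5:**
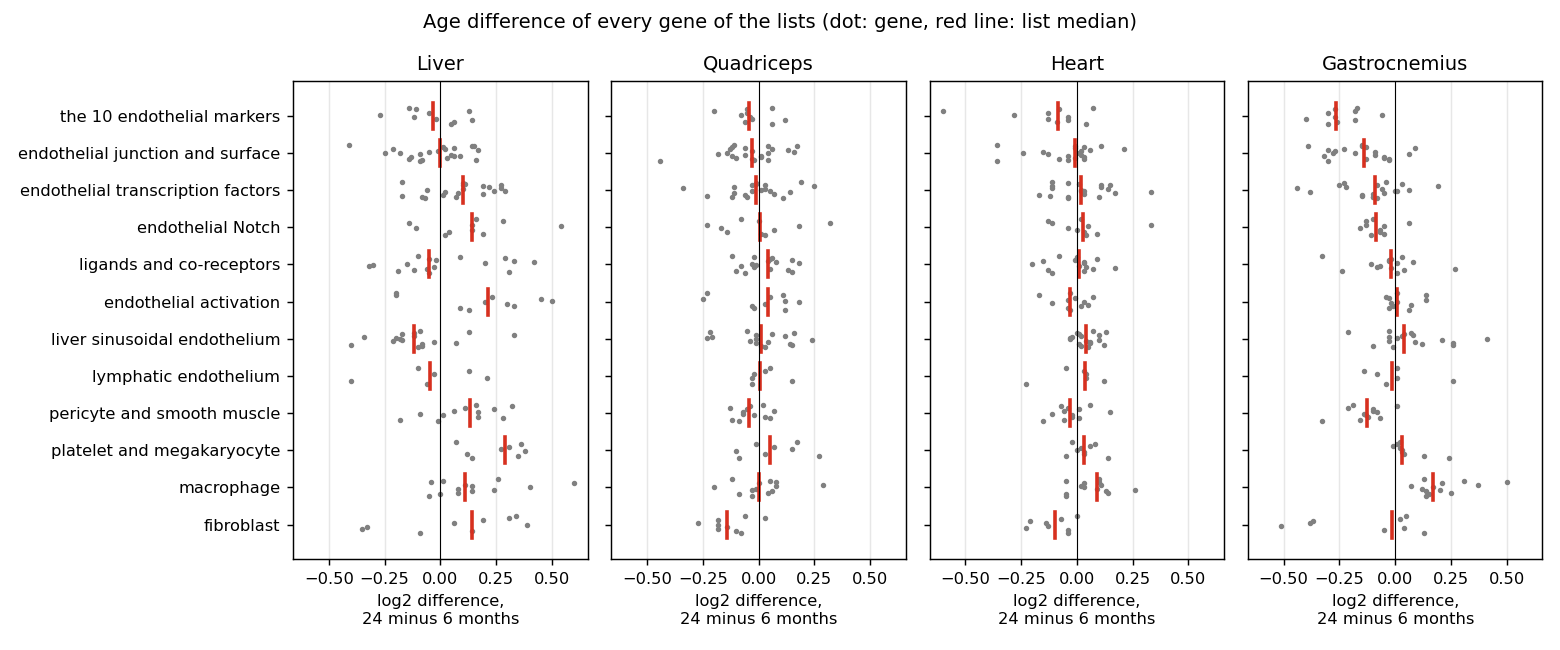
Age difference of every measured gene (small points) of the 10 endothelial markers and of 11 other lists in the 4 tissues, 24 minus 6 months on the log2 scale, with a red line at each list's median. In gastrocnemius the median of the 10 markers is -0.26 and that of the other junction and surface molecules -0.14, while all 13 macrophage markers lie above 0.

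How the 10 genes varied together within an age is given as a description. Each gene's deviation from its age mean was correlated with the mean deviation of the other 9. In gastrocnemius, over 8 arrays, Pearson's r ran from 0.37 for Vwf to 0.94 for Cdh5, with a median of 0.88 and a median Spearman's rho of 0.86. Without the 2 arrays farthest from the median, the range was 0.30 to 0.82 and the median 0.72. The points share their arrays and normalization. In heart r ran from -0.66 to 0.91 over 8 arrays with a median of 0.40, in liver from -0.17 to 0.83 over 6 with a median of 0.46, and in quadriceps from -0.72 to 0.86 over 6 with a median of 0.63. Without the 2 farthest arrays those medians were -0.09 in heart, 0.73 in liver and 0.44 in quadriceps, so the order of the tissues changed.

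The genes nearest to the mean of the 10, after each tissue's own mean was taken out, were different in the 2 tables. Over the 16 arrays of heart and gastrocnemius they were Pdgfrb (r = 0.96), Rnf40 (0.94), Numa1 (0.92), C1qtnf9 (0.92) and Cav1 (0.92). Over the 12 arrays of liver and quadriceps they were Serpina16 (0.97), Wdr93 (0.92), Mir30d (0.87), Olfr290 (0.87) and Gm10373 (0.87). Only Oxa1l was among the nearest 50 of both tables (r = 0.77 and 0.91). These coefficients describe arrays that share tissue, table and normalization, and the ages were pooled in them.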

How the data were processed

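The authors deposited log2 expression values, 1 per probe set and array, in 2 tables (12 arrays of liver and quadriceps, 16 of heart and gastrocnemius). The submitters' processing notes name RMA. Neither its version nor the set of arrays it normalized together is given in the sources used here. Such normalization can remove a shift shared by most genes. Of 28944 and 65956 probe sets, 21797 and 30604 have 1 gene symbol in the platform annotation and were kept, with 23 and 1135 symbols updated through RefSeq (GRCm38.p6). A gene took its probe set of highest mean.

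Each tissue was fitted alone with two-sided moderated tests of limma 3.58.1 (R 4.3.3; functions lmFit, then eBayes) and Benjamini-Hochberg adjustment over all genes, at a threshold of 0.05. Interactions and tissue differences at 6 months used both tissues of a table. The fits were tested on simulated data. Tissues of different tables were not tested against each other.

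The 10 genes and the lists were chosen with earlier results of these data known. Beside the 10, the 2 genes of smallest p per list and tissue, or those past the threshold, could be named, with the 5 of most similar pattern per table. The number of arrays limits the precision; intervals cover 95%. The alternatives were quantile, median and cyclic loess (3 iterations) normalization, dim genes left out, every probe set, an intensity trend with robust prior, array weights, a replicate block, a joint fit and leaving out each array.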

Additional observations from a re-analysis of the deposited data

Results flagged for a closer look

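Of 40 groups of 4 arrays looked at for the 10 genes, 4 held an array far from the other three by the gap between it and its neighbour. At a 95% critical value, chance alone gives about 1 in 20 such groups. Vwf read 7.67 in the 6-month heart array 3 and 7.69 in the 24-month heart array 3, above the others of each age. Pecam1 read 8.01 in the 6-month gastrocnemius array 4, below the others. Tek read 8.87 in the 24-month heart array 4, above the others but still below every 6-month heart.

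The age difference of Vwf was -0.18 in gastrocnemius, with every 24-month array lower, and 0.14 in liver, with every 24-month array higher. These tissues were measured on different array types, and the difference between them was not tested.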

How the results depend on the processing

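With 3 or 4 arrays per age, age differences had a standard error, as the median over all genes, of 0.0956 in liver, 0.0836 in quadriceps, 0.0637 in heart and 0.0667 in gastrocnemius, which limits what could pass. In liver the count of the 10 genes past the threshold was 0, where 65 of all 19928 genes were called. It became 1 with arrays centred on their median (2870 of all genes called) and 1 in a joint fit (3625). With array weights it became 2 (Tek and Pecam1, the latter -0.24 with adjusted p 0.0447), where 7897 of all genes were called. Leaving out each array gave 0 to 1, and the 1 came without the old array 3, where 5073 of all genes were called. In gastrocnemius the joint fit called 3 (Esam, adjusted p 0.0177; Robo4, 0.03; Tie1, 0.0283), with 829 of all genes called against 3 in the fit of gastrocnemius alone; leaving out arrays gave 0. For gastrocnemius against heart, 1 interaction passed with dim genes left out, with the intensity trend and robust prior and with array weights, and 0 to 1 when an array was left out. Counts in heart, quadriceps and the quadriceps against liver interaction stayed at 0 in every alternative run.

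Some liver differences near 0 changed sign. Esam was -0.07 and Robo4 -0.05 with arrays centred on their median, which moves all liver genes from a median of 0.03 to -0.09. Robo4 was -0.03 with array weights. Cdh5 was 0.10 under both quantile normalization and cyclic loess, and Tie1 was 0.04 and Kdr 0.02 with quantile normalization. For quadriceps against liver at 6 months, Tek was 0.26 (adjusted p 0.0046) with quantile normalization, 0.06 with centred arrays and 0.13 with cyclic loess, and Tie1 was 0.08 with quantile normalization. Leaving out each array moved the liver differences from -0.01 to 0.10 for Esam, -0.06 to 0.13 for Robo4, -0.07 to 0.02 for Cdh5 and -0.10 to 0.01 for Tie1. In quadriceps it moved Cdh5 from -0.09 to 0.02, Pecam1 from -0.08 to 0.04, Tie1 from -0.12 to 0.02, Kdr from -0.19 to 0.04 and Flt1 from -0.04 to 0.18. Gastrocnemius Tek ran from -0.12 to 0.02, and Tek in quadriceps against liver from -0.07 to 0.03. The causes were not tested.

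The replicate numbers were not taken as pairs, since no tissue had every same-numbered pair of arrays correlated over 0.1 in their deviations. Gastrocnemius came nearest, with 0.129, -0.045, 0.214 and 0.299, where 3 of the 4 exceeded every pair of unlike numbers (highest 0.111), a hint from the data and not from the design; there the mean of the 10 genes was lower at 24 months within every number. With the replicate block, 0 of the 10 genes passed in each age and interaction comparison (in gastrocnemius 0 of all genes, against 3 without it); Jag2 in liver had an adjusted p of 0.061 with it, and the block could not be fitted for the tissue differences at 6 months.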
